A study of Mus musculus with 24 samples.

Results

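The CELF proteins are a family of RNA-binding proteins, and their 6 genes in the mouse, Celf1 to Celf6, were followed here through 18 sequencing libraries. The members were taken by gene symbol from count files that list 24062 genes, and by gene name from the tables of splicing and tandem UTR events. All 6 had a row in every library and all 6 passed the filter on low counts in each comparison. In mm10, Celf1 (90940397 to 91019497, plus strand) and Celf2 (6539699 to 7396198, minus strand) lie on chromosome 2, Celf3 on chromosome 3 (94478295 to 94492198, plus strand), Celf4 on chromosome 18 (25477620 to 25753983, minus strand), and Celf5 on chromosome 10 (81459228 to 81482709, minus strand).

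CELF proteins bind stretches rich in U and G in pre-mRNA and mRNA. In the nucleus they promote or block the use of alternative exons, often in opposition to muscleblind proteins. In the cytoplasm they bind 3′ untranslated regions (UTRs) and influence deadenylation, decay and translation of the bound transcripts. CELF1 and CELF2 are made in many tissues, whereas the other members are found mainly in the nervous system. CELF6 has been described in monoaminergic cells of the brain, serotonin neurons among them.

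Brains of Celf6 knockout (KO) and wild-type (WT) mice were dissected at postnatal day 9, the cortex was taken off, and tissue just behind the thalamus was used. Total RNA of that tissue is called input. Translating ribosome affinity purification (TRAP) isolates RNA bound to tagged ribosomes, here from an allele active in serotonin cells. The 4 groups were KO TRAP (n = 5), WT TRAP (n = 5), KO input (n = 5) and WT input (n = 3), all of the same age, and the labels name 1 TRAP allele without its promoter. The strain and the deleted part of Celf6 are not given in the sources used here, so the Celf6 counts could not be split into deleted and remaining exons.

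The libraries held 3390423 to 6861963 counts each as deposited. A pair of WT input libraries, numbers 2 and 3, was as alike as 1 library sequenced again, with a chi-square per gene of 1.36. Libraries sequenced again gave 1.39 to 2.67 (4 pairs), whereas the other 35 pairs inside a group gave 26.2 to 95.3. The pair was therefore summed and counted as 1 sample, called WT input 2/3. The serotonin markers Tph2, which encodes tryptophan hydroxylase, and Slc6a4, the serotonin transporter, were higher in TRAP than in input by 5.89 ± 0.36 and 5.37 ± 0.32 on the log2 scale (SE, edgeR quasi-likelihood test, adjusted p = 1.44e-11 and 1.26e-11). Mbp, a myelin gene, fell by 1.97 ± 0.22 in TRAP. Levels are counts relative to library size (CPM), scaled by the trimmed mean of M values (TMM), or RPKM, the same value per kilobase of exon, where genes are compared with each other.

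A pair of libraries stood apart by RNA from the sex chromosomes. The summed level of the Y-linked genes Ddx3y, Eif2s3y, Uty and Kdm5d was 53.8 to 124 CPM with Xist at most 2.45 CPM in 8 libraries, and at most 0.648 CPM with Xist at 42.1 to 260.6 CPM in another 8. The library labelled KO TRAP 1 held both, at 28.6 CPM Y-linked and 70.8 CPM Xist, whereas KO input 1 had 0.507 CPM Y-linked and 104 CPM Xist. The library labelled WT input 5 also held both, at 9.79 CPM Y-linked and 36.5 CPM Xist, whereas WT TRAP 5 had 70.9 CPM Y-linked and 0.472 CPM Xist. In both cases the TRAP and input libraries of 1 number did not match, and whether RNA or labels were mixed was not tested. The fitted changes of Celf6 are given with and without KO TRAP 1 or WT input 5. So are those of Celf1 and Celf5 between genotypes in TRAP, and of Celf2 and Celf4 between TRAP and input. Mean levels, shares, permutation tests and similar genes are not given without them.

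Celf6, the gene targeted in the KO, was lower in most KO TRAP libraries than in WT TRAP, but its counts did not vanish and the groups overlapped. It lies on chromosome 9 (59578337 to 59607292, plus strand, mm10), with 2765 bases of exon in the annotation used for counting. In KO TRAP replicates 1 to 5 its level was 114, 21.4, 56.6, 26.9 and 36.6 CPM, against 149, 186, 169.8, 116 and 84.8 CPM in WT TRAP. In 4 of the 5 KO libraries Celf6 lay below every WT library. The library labelled KO TRAP 1 stood above WT TRAP 5 and just under WT TRAP 4, and it is the one with both Y-linked RNA and Xist. Not overlapping between the genotypes in TRAP was rare, at 0.746% of 12204 genes, and Celf6 was not among them.

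The mean Celf6 level was 51.2 ± 37.7 CPM in KO TRAP and 141 ± 40.9 CPM in WT TRAP (SD, n = 5 each). The fitted change was −1.52 ± 0.38 on the log2 scale, with an unadjusted p of 7.6e-04 and an adjusted p = 0.9992 by the edgeR quasi-likelihood test over 12204 genes. No gene passed that test (0% called), 455 genes had an unadjusted p below 0.05, and DESeq2 called 1 gene, which was not Celf6. As a single value, the difference of −1.67 in mean log2 CPM had p = 0.0159 in a two-sided exact permutation test over 252 splits, whose smallest possible p is 0.00794. The difference was −1.69 within sequencing run 1 and −1.65 within run 2. Without KO TRAP 1 the fitted change was −1.93 (adjusted p = 0.474). Without the expression filter, the edgeR test gave Celf6 an adjusted p = 0.0323, so this call depends on the filter.

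In input Celf6 was near the floor of the family in every KO library, while the WT libraries disagreed with each other. The KO input libraries had 14.9, 22.2, 17.1, 4.78 and 17.1 CPM, against 33.2, 15.5 and 103 CPM in WT input 1, 2/3 and 5. The sample labelled WT input 2/3 fell inside the KO range, and WT input 5, the input library with both Y-linked RNA and Xist, stood far above all other input libraries. The fitted change was −1.56 ± 0.66 (unadjusted p = 0.0314, adjusted p = 0.9996, edgeR over 13036 genes, of which 0% were called). Of these genes 376 had an unadjusted p below 0.05 and DESeq2 called 0. Without WT input 5 the change was −0.44, without WT input 2/3 it was −2.18, and without KO input 4 it was −1.05. The exact permutation p over 56 splits was 0.0893 (two-sided, smallest possible 0.0179). In input, groups did not overlap for 2.18% of genes, and no member was among them. Within run 1 the mean log2 CPM differed by −0.35, and within run 2, which holds 1 WT input library, by −3.44.

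**Figure D1:**
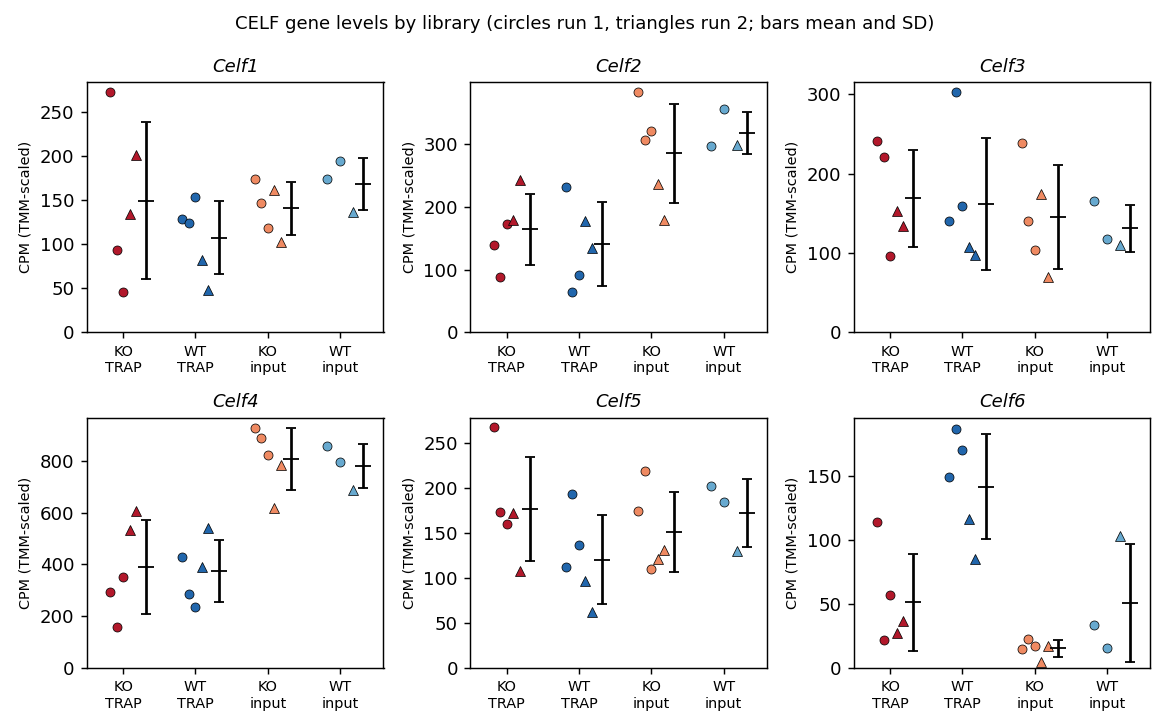
Level of each CELF gene in every library, in TMM-scaled CPM, for KO TRAP, WT TRAP, KO input and WT input. Circles are sequencing run 1, triangles run 2, and bars the mean with its SD. Celf6 is the member with lower KO than WT means in both RNA kinds, and its WT input samples lie at 15.5 to 103 CPM.

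Splicing values of Celf6 were present only in WT libraries. Percent spliced in (PSI) is the fraction of transcripts of an event that carry the isoform called B, as estimated by MISO, and the authors kept a value only where its credible interval was at most 0.20 wide. The tables hold 4 Celf6 events, and 3 of them lie between 59603448 and 59604443 of chromosome 9. The skipped exon there (59603808 to 59603870) is 63 bases long, keeps the reading frame, and is not an exon of its own in the annotation used for counting. Its PSI was 0.0504, 0.0375, 0.0684 and 0.0670 in WT TRAP 1, 2, 3 and 5, where PSI counts the isoform with the exon.

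The exon was thus skipped in nearly all WT TRAP transcripts that could be measured. A mutually exclusive pair in the same stretch had a PSI of 0.946 to 0.965 in the same 4 libraries, and a related pair had 0.965 and 0.947 in WT TRAP 1 and 2. No KO TRAP library had a value for any of the 4 Celf6 events, and neither did WT TRAP 4. Celf6 had 615, 131, 377, 143 and 136 counts in KO TRAP 1 to 5, against 631, 1189, 964, 484 and 359 counts in WT TRAP 1 to 5. In 3 of the 5 KO TRAP libraries the count was below that of every WT TRAP library. The remaining event, an 80-base exon at 59602800 to 59602879 whose length is no multiple of the codon, had a value only in WT input 5 (PSI 0.948). The part of depth in the missing values was not tested.

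None of the other 5 members passed the test between KO and WT in TRAP, in which 0% of genes were called. Celf5, expressed mainly in neurons, had the next smallest p. Its levels were 268, 174, 161, 173 and 108 CPM in KO TRAP 1 to 5, against 112, 194, 137, 96.2 and 62.6 CPM in WT TRAP. All KO values lay within or above the WT range and the groups overlapped. The fitted change was 0.58 ± 0.29 (unadjusted p = 0.0615, adjusted p = 0.9992, edgeR), and 0.45 without KO TRAP 1.

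Celf1, which in human cells recruits a deadenylase to bound mRNAs, was widely spread among KO TRAP libraries. It was at 272, 93.7, 45.2, 135 and 201 CPM in KO TRAP 1 to 5, against 129, 124, 153, 82.5 and 48.2 CPM in WT TRAP. The highest and the lowest TRAP values were both in KO libraries. Its fitted change was 0.53 ± 0.42, while the plain difference was −0.36 within run 1 and 1.38 within run 2. Without single libraries the fitted change ran from 0.10, without KO TRAP 1, to 0.85, without KO TRAP 3.

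Celf2, Celf3 and Celf4 had the smallest fitted changes between the genotypes in TRAP. Their fitted changes were 0.18 ± 0.34 for Celf2, 0.11 ± 0.31 for Celf3 and −0.04 ± 0.28 for Celf4 (adjusted p = 0.9992 each, edgeR). The sign for Celf4 turned without the run covariate, at 0.03. In input the changes were −0.24 ± 0.27 for Celf1, −0.17 ± 0.23 for Celf2 and 0.17 ± 0.35 for Celf3. Celf4 was at 0.06 ± 0.19 and Celf5 at −0.16 ± 0.28 there (adjusted p = 0.9996 for each of the 5 members, edgeR). For each of these 5 genes the KO and WT libraries overlapped in both RNA kinds.

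The difference between the 2 genotype effects was also tested directly, as the KO−WT change in TRAP less that in input. No gene of 14261 passed (0% called, 554 with an unadjusted p below 0.05, 3 called by DESeq2). For Celf6 that difference was 0.38 ± 0.74, for Celf5 0.72 ± 0.41 and for Celf1 0.76 ± 0.54, each with an adjusted p = 1.00 by edgeR. The other members were at 0.38 ± 0.48 (Celf2), −0.07 ± 0.49 (Celf3) and −0.02 ± 0.42 (Celf4). Without WT input 5 the Celf6 value was −1.12, and without KO TRAP 1 and WT input 5 together it was −1.43 (adjusted p = 1.00).

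Summed levels of some marker lists of other cell types did not overlap between the genotypes in either TRAP or input. These lists are given because of that, and the sums of all remaining cell type lists overlapped in both RNA kinds. The summed level of 7 fibroblast and meningeal markers was 48.0 to 260.2 CPM in KO TRAP, against 123 to 663 CPM in WT TRAP, and 455 to 994 CPM in KO input, against 1211 to 1494 CPM in WT input. The input ranges did not overlap, although 0 of the 6 markers tested in input, and 0 of 5 in TRAP, passed the edgeR test. The smallest p values belonged to Ptgds (−2.30 ± 0.60 in TRAP and −2.11 ± 0.57 in input) and Igf2 (−1.10 ± 0.40 and −0.52 ± 0.21). Other markers of this list went the other way, with a highest change of 0.86 in TRAP and 0.32 in input. Lum was at 0 in 3 of 5 KO TRAP, 3 of 5 WT TRAP, 2 of 5 KO input and 1 of 3 WT input libraries, Dcn in 1 KO TRAP library and Col1a1 in 1 WT TRAP library. The sum of 8 microglia and macrophage markers was 9.41 to 28.6 CPM in KO TRAP, against 29.9 to 63.8 CPM in WT TRAP, and 58.8 to 67.4 CPM in KO input, against 23.6 to 138 CPM in WT input. The TRAP ranges did not overlap and the input ranges did, 0 of 4 tested markers passed in TRAP and 0 of 6 in input, and up to 4 of the 8 were at 0 in a KO TRAP library and up to 3 in a WT TRAP library. In TRAP these were P2ry12, Aif1, C1qa, C1qb, Cd68 and Trem2 in KO libraries and P2ry12, C1qa and Trem2 in WT libraries. The sum of 4 dopaminergic and noradrenergic markers was 39.2 to 72.6 CPM in KO input, against 76.7 to 98.8 CPM in WT input. These input ranges did not overlap, and the TRAP ranges did (4.90 to 36.2 CPM in KO, 15.3 to 41.1 CPM in WT). Of these markers 0 of 3 tested in input and 0 of 4 in TRAP passed, and Slc6a3 was at 0 in some libraries. They did not share a direction in input, where Slc6a2 changed by −1.18 ± 0.47 and Dbh by 0.24 ± 0.81. For single genes, ranges did not overlap for 2.18% in input and 0.746% in TRAP. The part of these cells in the Celf6 values was not tested. Serotonin markers overlapped between the genotypes, with 11 genes summing to 5828 to 10262 CPM in KO TRAP, against 4184 to 10538 CPM in WT TRAP.

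Between TRAP and input the CELF members went in different directions. Celf6 was higher in TRAP and Celf2 and Celf4 were lower, each past the edgeR threshold. Celf1, Celf3 and Celf5 did not pass. Of 14261 genes tested, 4.72% were called, 2.41% higher and 2.31% lower in TRAP, while 1 of 6 members was called higher and 2 of 6 lower. The comparison used all 4 groups and averaged the TRAP−input difference over KO and WT. In bulk RNA, fewer cells of a type and less RNA per cell cannot be told apart.

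Celf4, whose loss in mice leads to seizures, was the member most clearly lower in TRAP. Its lowest, median and highest levels were 158, 372 and 609 CPM in 10 TRAP libraries, against 619.9, 809 and 929 CPM in 8 input libraries. Each TRAP library lay below every input library, as was true in either direction of 0.750% of genes. The change was −1.13 ± 0.21 on the log2 scale (adjusted p = 0.00155, edgeR). TRAP was lower than the input of the same number in 9 of 9 pairs, with differences of −2.49 to −0.21. The mean difference was −1.61 within run 1 and −0.44 within run 2. Without KO TRAP 1 and WT input 5 together the change was −1.22 (adjusted p = 0.00569). With KO libraries alone it was −1.16 with an adjusted p = 0.0897.

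Celf2, a splicing regulator of brain and heart, was also lower in TRAP. It ran from 64.7 to 243 CPM with a median of 155 CPM in TRAP, against 179 to 382 CPM with a median of 303 CPM in input. In 8 of 10 TRAP libraries it lay below every input library. KO TRAP 5 was the highest TRAP value and KO input 5 the lowest input value. The change was −0.999 ± 0.240 (adjusted p = 0.0137, edgeR), with TRAP lower in 8 of 9 pairs. It was −1.46 within run 1 and −0.47 within run 2. The call was lost with KO libraries alone (−0.81, adjusted p = 0.280), with WT libraries alone (−1.21, adjusted p = 0.0953) without KO TRAP 1 and WT input 2/3 together (−0.93, adjusted p = 0.0513) and without KO TRAP 1 and WT input 5 together (−1.005, adjusted p = 0.0674).

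Celf6 ran from 21.4 to 186 CPM with a median of 99.5 CPM in TRAP, against 4.78 to 103 CPM with a median of 17.1 CPM in input. The input range reached above the TRAP median through WT input 5 alone, and 5 of 10 TRAP libraries lay above every input library. The change was 1.55 ± 0.39 (adjusted p = 0.0200, edgeR), with TRAP higher in 7 of 9 pairs. In KO the pairs ran from −0.05 to 2.91 and in WT from −0.28 to 3.56. The mean difference was 2.19 within run 1 and 0.85 within run 2, where the WT value was −0.05.

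The Celf6 call between TRAP and input was lost in 5 of 28 alternatives, while the change ran from 1.08 to 2.27 over all 28. It was lost without WT input 1 (1.36, adjusted p = 0.0945), without WT input 2/3 (1.26, adjusted p = 0.0689) and without KO TRAP 1 and WT input 2/3 together (1.08, adjusted p = 0.0862). Without WT input 5 the change was 2.27 (adjusted p = 7.2e-04), and without KO TRAP 1 and WT input 5 together 2.03 (adjusted p = 0.00137). Leaving out the pairs numbered KO 1 and WT 5, TRAP was higher in 6 of 7. KO libraries alone gave 1.70 (adjusted p = 0.145) and WT libraries alone 1.63 (adjusted p = 0.143), where 1.01% and 1.23% of genes were called.

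The members that did not pass were spread widely in TRAP. Celf1 had 45.2 to 272 CPM in TRAP, against 103 to 194 CPM in input, and its TRAP libraries lay both above and below the whole input range (change −0.27 ± 0.27, adjusted p = 0.651, edgeR). Celf3, a brain-expressed splicing activator, had 95.7 to 304 CPM in TRAP, against 70.3 to 239 CPM in input (0.25 ± 0.25, adjusted p = 0.635). Celf5 had 62.6 to 268 CPM in TRAP, against 109.9 to 219 CPM in input (−0.15 ± 0.21, adjusted p = 0.766). In KO alone the signs of Celf1 and Celf5 turned, at 0.07 and 0.21.

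**Figure D2:**
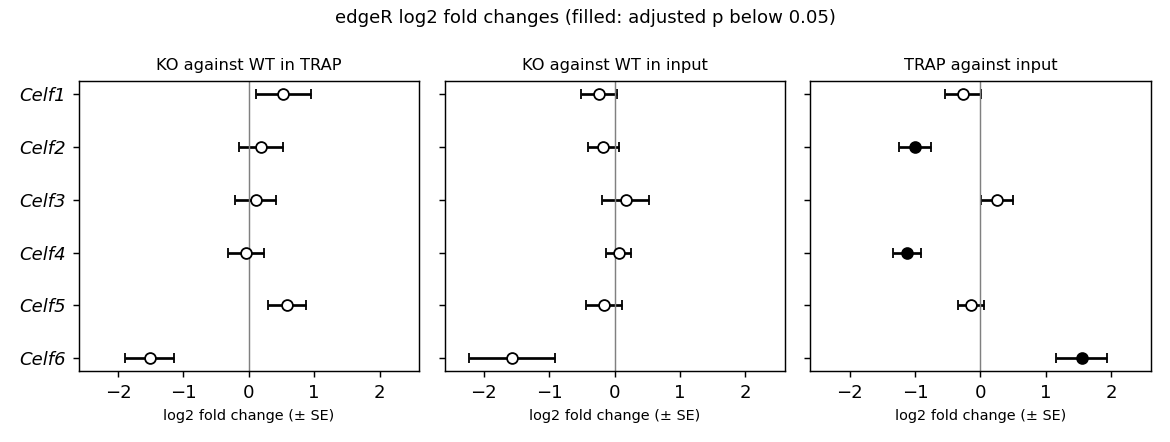
Log2 fold changes of the 6 CELF genes with their SE, for KO against WT in TRAP, KO against WT in input, and TRAP against input. Filled points have an edgeR adjusted p below 0.05, and these are Celf2 (−0.999), Celf4 (−1.13) and Celf6 (1.55), all in TRAP against input.

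**Figure D3:**
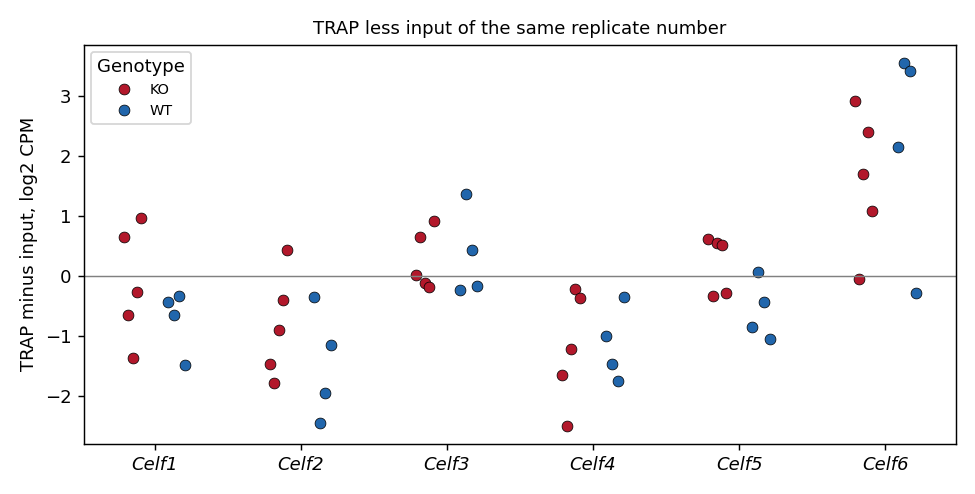
TRAP less input of the same replicate number, in log2 CPM, with KO points left of WT points for each gene. WT TRAP 2 and 3 are both set against WT input 2/3 and WT TRAP 4 has no partner, which gives 5 KO and 4 WT points. All 9 points of Celf4 lie below 0, and 7 of 9 points of Celf6 lie above it.

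Markers of other cell types moved with the TRAP and input comparison too. Of 8 oligodendrocyte lineage markers 5 were lower in TRAP and 0 higher, and their sum was 1379 to 4191 CPM in KO TRAP and 936 to 4927 CPM in WT TRAP, against 4700 to 8416 CPM in KO input and 4578 to 11616 CPM in WT input. Of 7 astrocyte markers 2 were lower, and of 11 serotonin markers 10 were higher. Among neuronal markers, 2 of 5 glutamatergic genes (Camk2a and Neurod2) and 2 of 5 GABAergic and glycinergic genes (Gad2 and Slc32a1) were lower. Of 6 pan-neuronal genes 1 was lower, Nefl (−0.76 ± 0.20), while Syt1 was at 0.61 ± 0.24 and the list median was −0.01. Of the dopaminergic and noradrenergic markers 1 of 4 was lower, and of the fibroblast and meningeal markers 2 of 7. The cholinergic, microglial, endothelial and ependymal lists had 0 called. Over all genes 2.31% were lower and 2.41% higher. None of the oligodendrocyte and astrocyte markers was at 0 in any library. The part of these cells in the values of Celf2, Celf4 and Celf6 was not tested.

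Per length of exon, Celf4 was the leading family member in input, and several members were close in TRAP. In KO input Celf4 averaged 146 ± 21.6 RPKM and in WT input 141 ± 15.4 RPKM (SD, n = 5 and n = 3), above the next gene in every library with no overlap. It made up 53.2% of the family's summed RPKM in KO input and 48.2% in WT input. Celf3, Celf5 and Celf2 came next in input, at 30.0 to 42.8 RPKM in KO and 33.3 to 39.2 RPKM in WT, and neighbours among them overlapped. Celf1 averaged 17.6 ± 3.72 RPKM in KO input and 21.1 ± 3.72 RPKM in WT input. Celf6 was last, at 5.50 ± 2.32 RPKM in KO input, below Celf1 in every library, and at 18.3 ± 16.7 RPKM in WT input, where it overlapped Celf1.

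In KO TRAP the order was Celf4 (70.3 ± 32.9 RPKM), Celf3 (49.7 ± 17.9), Celf5 (40.2 ± 13.2), Celf1 (18.7 ± 11.2), Celf6 (18.5 ± 13.6) and Celf2 (17.3 ± 5.95). In WT TRAP it was Celf4 (67.9 ± 21.6 RPKM), Celf6 (51.1 ± 14.8), Celf3 (47.5 ± 24.4), Celf5 (27.4 ± 11.2), Celf2 (14.7 ± 7.03) and Celf1 (13.5 ± 5.24). The ranges of neighbours overlapped throughout TRAP. Celf4 was the highest member in 14 of 18 libraries, Celf3 in 3 and Celf6 in 1.

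Celf6 thus held 8.30% ± 4.83 of the family's RPKM in KO TRAP and 22.8% ± 4.74 in WT TRAP, against 1.99% ± 0.83 in KO input and 6.49% ± 6.31 in WT input (SD). The family total was 215 ± 47.1 RPKM in KO TRAP and 222 ± 34.8 RPKM in WT TRAP, against 276 ± 49.5 RPKM in KO input and 291 ± 21.4 RPKM in WT input. The totals of the genotypes overlapped in both RNA kinds.

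**Figure D4:**
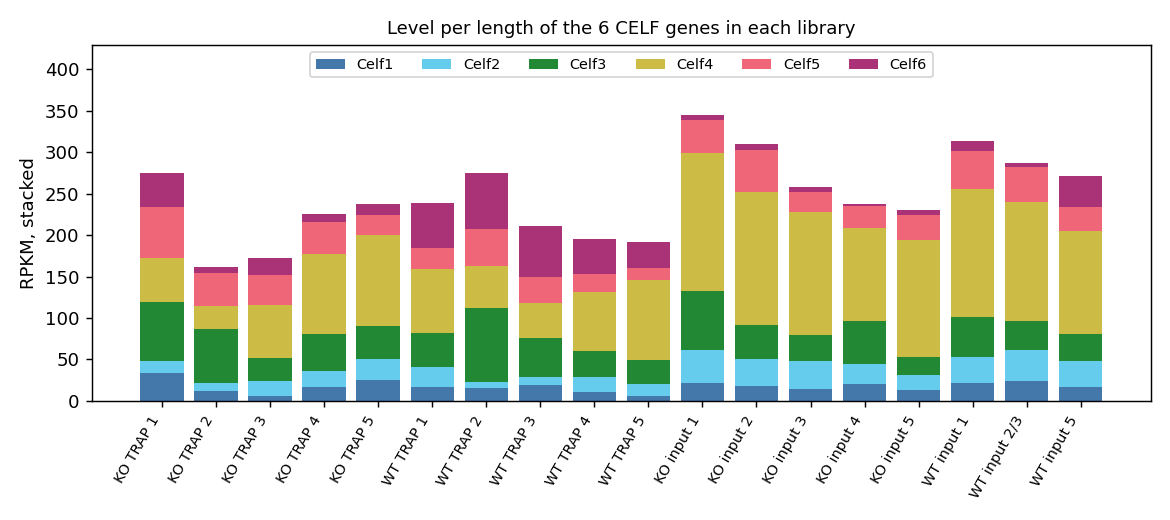
RPKM of the 6 CELF genes stacked in each of the 18 libraries, ordered KO TRAP, WT TRAP, KO input, WT input. Celf4 makes up about as much as the rest together in input (53.2% in KO and 48.2% in WT on average), and the Celf6 segment is larger in WT TRAP (22.8%) than in KO TRAP (8.30%).

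Pairs of members were compared within TRAP (10 libraries) and within input (8 libraries), which made 30 relations between log2 CPM values. KO and WT libraries of both sequencing runs were pooled for this, and the permutations ran across them without a covariate. The part of run and genotype in these relations was not tested. In TRAP, Celf3 and Celf5 had r = 0.74 and rho = 0.78 (permutation p = 0.0137 and 0.0105, adjusted p = 0.228 and 0.184), and r = 0.59 without the 2 libraries farthest from the median of Celf3. Celf2 and Celf4 had r = 0.73 and rho = 0.77 (permutation p = 0.0152 and 0.0123, adjusted p = 0.228 and 0.184). Without the 2 libraries farthest from the median of Celf2 their r was 0.70. Celf3 and Celf4 had r = −0.58 and rho = −0.61 (permutation p = 0.0784 and 0.0668, adjusted p = 0.336 and 0.416). Without the 2 libraries farthest from the median of Celf3 their r was −0.62. Celf2 and Celf3 had r = −0.65 and rho = −0.52 (permutation p = 0.0406 and 0.132, adjusted p = 0.305 and 0.441). That r was −0.22 without the 2 libraries farthest from the median of Celf2. Of the 10 pairs among Celf1 to Celf5, 5 had a positive r in TRAP and 10 in input, where r ran from 0.12 to 0.75. The highest in input was Celf1 with Celf3, at r = 0.75 and rho = 0.69 (exact permutation p = 0.0327 and 0.0694, adjusted p = 0.305 and 0.416), and r = 0.29 without the 2 libraries farthest from the median of Celf1. None of the 30 relations passed after adjustment.

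The genes most like each member were found by Pearson's r of log2 CPM over the 18 libraries among 14260 other genes. For Celf2 these were Rbfox1 (r = 0.97), Nova1 (0.95) and Marcks (0.93), and for Celf4 they were Elavl3 (0.96), Cacng2 (0.94) and Gatm (0.90). All 6 of these genes were themselves lower in TRAP than in input, with log2 changes of −2.04 to −0.90. They were chosen over TRAP and input libraries together, so this direction largely follows from the choice. With the means of group and run taken out, r was 0.94 for Rbfox1 with Celf2 and 0.88 for Elavl3 with Celf4. These values come from the libraries used to pick the genes, so the choice can raise them too. Celf1 was most like Psd2 (0.88), Ints5 (0.85) and Zcchc14 (0.83), Celf3 like Znrf1 (0.86), Ppp1r37 (0.85) and Git1 (0.83), and Celf5 like Epn1 (0.82), Lonrf1 (0.79) and Tbrg4 (0.79). Taking out the means of group and run left Lonrf1 at 0.50 and the others named for these members at 0.76 to 0.87. Celf6 was most like Rbm15b (0.88), Stmn1 (0.85) and Rps6ka2 (0.80), and these r fell to 0.59, 0.70 and 0.55 with the means of group and run taken out. By Spearman's rho, 10 of the 18 genes stayed among the 3 nearest.

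The tables of splicing events hold 8935 events, of which 19 belong to 5 members and none to Celf5, and the 960 tandem UTR events hold no row of a member. Most member events had a value in few libraries. Between genotypes, 2 events could be tested in TRAP and 1 in input, and none passed (limma on log2(PSI/(1−PSI)), 0% of 1861 and of 1154 splicing events called, 125 and 43 with an unadjusted p below 0.05). For retained introns and alternative splice sites the file headers do not say which isoform a PSI of 1 stands for, so these values carry no direction in words.

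The retained intron event of Celf3 (chromosome 3, 94486794 to 94487284) was measured in all TRAP libraries. Its PSI was 0.0145, 0.0633, 0.0219, 0.0296 and 0.0634 in KO TRAP 1 to 5, against 0.0392, 0.0200, 0.0305, 0.0474 and 0.0873 in WT TRAP. The values of the genotypes interleaved and all were low. The logit difference was −0.29 ± 0.47 (limma, adjusted p = 0.934), and the authors' deposited table gives p = 0.628. In input it ranged from 0.0117 to 0.0504 in 4 KO libraries and from 0.0222 to 0.0639 in WT input 1, 2 and 3, of which 2 and 3 count as 1 sample, with p = 0.607 in the authors' deposited table.

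An alternative 5′ splice site of Celf4 (chromosome 18, 25486794 to 25491224) had a PSI of 0.0394, 0.143 and 0.172 in KO TRAP 2, 4 and 5, against 0.0886, 0.104 and 0.0622 in WT TRAP 1, 2 and 3. The lowest and both of the highest values were in KO libraries. With the sequencing run in the fit the difference was −1.15 ± 0.42 (limma, adjusted p = 0.744), and without it 0.31 (adjusted p = 0.976), since the 3 WT values all come from run 1. The value of −1.15 thus sets KO TRAP 2, the only KO value of run 1, against 3 WT libraries, and says nothing of the other KO libraries. The authors' deposited table gives p = 0.711.

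The retained intron event of Celf1 at the end of the gene (chromosome 2, 91013238 to 91019497) varied widely between libraries. Its PSI in input was 0.584, 0.440 and 0.591 in KO input 1, 2 and 4, against 0.930, 0.635, 0.669 and 0.144 in WT input 1, 2, 3 and 5. The WT values spanned the whole KO range. The difference was −0.46 ± 1.52 with WT input 2 and 3 averaged (limma, adjusted p = 1.00), and the authors' deposited table gives p = 0.750. That difference was −2.25 without WT input 5 and 0.85 without WT input 1. In TRAP the PSI was 0.120 and 0.225 in 2 KO libraries, against 0.150 to 0.514 in 3 WT libraries.

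Between TRAP and input 5 member events could be tested and none passed (0% of 2511 events called, 218 with an unadjusted p below 0.05). The Celf1 retained intron event differed by −2.86 ± 1.05 (limma, unadjusted p = 0.0263, adjusted p = 0.491), with a PSI of 0.120 to 0.514 in 5 TRAP libraries and 0.144 to 0.930 in 6 input samples. All 5 TRAP values came from run 1, so the run term of that fit rested on input samples alone. The plain difference, without the run, was −1.99 (two-sided exact permutation p = 0.0779). An alternative 3′ splice site event over the same coordinates differed by −1.93 ± 1.32 (adjusted p = 0.735). The Celf4 5′ splice site had the smallest unadjusted p of the 5, at 0.0085 (limma, adjusted p = 0.325). It differed by −1.38 ± 0.38, or by −0.29 without KO TRAP 2. The Celf3 5′ splice site differed by −0.26 ± 0.37 (adjusted p = 0.900) and the Celf3 retained intron event by −0.10 ± 0.49 (adjusted p = 0.968).

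**Figure D5:**
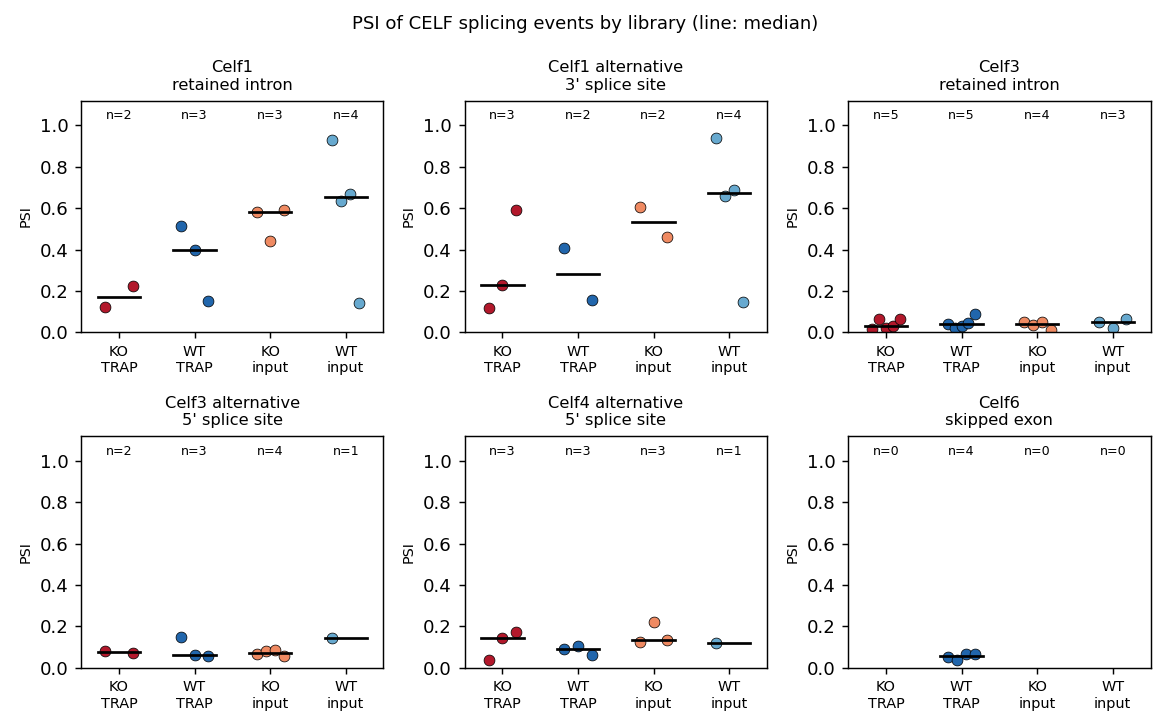
PSI of 6 CELF splicing events in each library that had a value, with the median as a line and the number of libraries as n, for KO TRAP, WT TRAP, KO input and WT input. The 2 Celf1 events span much of the scale, the Celf3 and Celf4 events stay below 0.221, and the Celf6 exon has values in 4 WT TRAP libraries only.

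The 5 events of Celf2 had a value in at most 3 libraries each and could not be tested. A 144-base exon that keeps the frame (chromosome 2, 6549832 to 6549975) had a PSI of 0.834 in 1 KO input library and 0.968 in 1 WT input library. An 80-base exon (6607882 to 6607961) was at 0.948 in KO TRAP, 0.943 in WT TRAP and 0.957 in KO input, 1 library each, so it was included in nearly all measured transcripts.

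The same tables mark genes bound by tagged CELF6 protein in crosslinking and immunoprecipitation (CLIP), in which RNA pulled down with an antibody to the tag is sequenced. Of the 5 members with events 2 were marked in the authors' deposited table, Celf2 in its 3′ UTR by the contrast with wild-type littermates and Celf4 in an intron by the contrast with input RNA. Of its 4132 gene names, 1022 (24.7%) were marked. Celf1, Celf3 and Celf6 were not marked, and Celf5 has no row.

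Genes that work beside the CELF proteins were read as counts only. Between genotypes 0 of the tested muscleblind (2), ELAV-like (4), deadenylation (15) and other neuronal splicing regulator genes (14) passed in TRAP or in input. Nor did any of 9 tested transcripts studied as CELF splicing targets in TRAP or of 10 in input. The median change in TRAP was 0.12 for the muscleblind list, 0.36 for the ELAV-like, 0.30 for the deadenylation, 0.10 for the splicing regulator and 0.34 for the target list, against 0.02 over all genes. In input these medians were 0.02, −0.22, 0.04, −0.05 and −0.06 in the same order, against 0.02 over all genes. The smallest p values in TRAP among these lists belonged to Cnot7, a deadenylase (0.61 ± 0.25), and Parn, the deadenylase that CELF1 is known to recruit (0.96 ± 0.47), both with an adjusted p = 0.9992 by edgeR.

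Between TRAP and input the muscleblind genes tested did not pass, with Mbnl1 at −0.02 ± 0.25 and Mbnl2 at 0.00 ± 0.29, and 0 of 15 deadenylation genes passed. Of 4 ELAV-like genes 1 was lower in TRAP, the neuronal RNA stabiliser Elavl3 (−2.04 ± 0.30, adjusted p = 7.5e-05, edgeR). Of 14 other splicing regulators 2 were lower, Rbfox1 (−1.33 ± 0.27, adjusted p = 0.00365) and Nova1 (−0.99 ± 0.25, adjusted p = 0.0198). Of 10 target transcripts 1 was lower, Grin1, an NMDA receptor subunit with a CELF-regulated exon (−1.25 ± 0.27, adjusted p = 0.00640). Over all genes 2.31% were lower in TRAP. The medians were −0.01, 0.16, 0.05, −0.14 and −0.28 for the muscleblind, deadenylation, ELAV-like, splicing regulator and target lists, against 0.02 over all genes.

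In splicing, 7 of the 11 target genes had events, 27 in all. Between genotypes 13 were tested in TRAP and 11 in input, and between TRAP and input 18, with 0 called each time. The smallest p between genotypes in both RNA kinds belonged to a skipped exon of Mef2d, a transcription factor whose splicing CELF proteins regulate in muscle. It differed by 0.52 ± 0.24 in TRAP (limma, adjusted p = 0.807) and by −0.19 ± 0.14 in input (adjusted p = 0.960).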

How the data were processed

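Counts of reads in exons per gene were made by the authors with featureCounts 1.4.6-p5 on mm10 genes, without strand, per the file headers. Trimmomatic and STAR are named in the submitters' processing notes, without versions. The splicing tables hold PSI fractions from MISO and p-values and FDR of the authors' own ANOVA on log2(PSI/(1−PSI)), per the file headers.

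Of 24 deposited samples, 4 repeat runs and WT input 4 (325072 counts, labelled an outlier) were left out, and WT input 2 and 3 were summed. Genes were filtered with filterByExpr, scaled by TMM and tested with edgeR 4.0.16 (R 4.3.3) with the sequencing run as covariate, at an adjusted p (Benjamini-Hochberg) below 0.05. SE is the log2 change divided by the root of F. Log2 CPM used a prior count of 2. PSI was held between 0.01 and 0.99, and events with at least 3 values per genotype or RNA kind were tested with limma 3.58.1. DESeq2 1.42.0, other filters, other covariates and fits without single libraries were the alternatives. The fits were tested on simulated data.

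All members are named in every comparison. Events are named from 3 values per genotype, like genes by the 3 highest r, and lists by the 2 smallest p. The Celf2 and Celf6 events fall outside this rule and were named after their values were seen. The members and lists were chosen with earlier results of these data known.

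The design text names 5 WT and 5 KO brains, so a number may mark 1 brain in TRAP and input. Sex-linked RNA matched in kind between TRAP and input in 7 pairs, but not for KO 1 and WT 5. In addition, WT input 2/3 stands for a pair of numbers. The numbers were therefore not taken as shown to pair the libraries. KO and WT share only a number. Deviations from group means correlated at −0.186 to 0.036 in KO and −0.164 to −0.029 in WT pairs of TRAP and input. P-values measure the spread between these libraries.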

Additional observations from a re-analysis of the deposited data

How the results depend on the processing

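Of the alternative values, 778 were taken as unchanged. These kept their direction and side of the threshold or, for counts and the order of levels, stayed near the main value. Another 35 turned direction, 10 fell short of the threshold, 1 passed it and 24 counts moved, and the cause of these was not tested. Between KO and WT in TRAP, the count of genes was 1 with DESeq2 and 16 with no expression filter, where 1 member (Celf6) was called, and Celf4 was 0.029 without the run covariate and −0.15 to 0.14 without single libraries. In input, 4 genes were called with no expression filter and 0 to 1 without single libraries, the 1 without KO input 3. There Celf3 ran from −0.078 to 0.32 and Celf2 from −0.30 to 0.039 without single libraries.

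Between TRAP and input, 1290 genes were called with DESeq2 (666 shared with the 673), 1065 with no expression filter, 346 to 831 without single libraries, 124 with KO alone (0 members) and 160 with WT alone (1 member, Celf4). The lowest were 346 without WT input 5 and 363 without WT input 1, and 2 to 3 members were called without single libraries. Leaving out KO TRAP 1 and WT input 2/3 together, chosen after seeing the data, left 1 member, Celf4. Leaving out KO TRAP 1 and WT input 5 together, also chosen after seeing the data, called 337 genes (306 shared) and 2 members, Celf4 and Celf6. KO alone turned Celf1 (0.073) and Celf5 (0.21).

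For the difference between the genotype effects, DESeq2 and no expression filter each called 3 genes. With WT input 2 and 3 apart Celf4 was 0.014, and without KO TRAP 1 and WT input 5 together Celf4 was 0.21 and Celf6 −1.43. Without single libraries Celf3 ran from −0.21 to 0.22, Celf4 from −0.18 to 0.18 and Celf6 from −1.12 to 0.94.

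With the replicate number as a block, 540 genes were called between TRAP and input (462 shared), with Celf6 at 1.79, Celf2 at −1.09 and Celf4 at −1.12, and no member's call changed. Between KO and WT the block called 0 genes and gave Celf3 −0.012 in input, and for the difference of effects it gave Celf3 0.0078 and Celf6 −0.30. KO and WT libraries share only a number, with 0 of 5 TRAP and 1 of 4 input pairs correlating best with their own number.

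Among splicing events, dropping the run covariate called 1 event between genotypes in TRAP and turned Celf4 to 0.31, and leaving out libraries called 0 to 2. Between TRAP and input a wider PSI range (from 0.001) called 3 and leaving out libraries 0 to 6. The retained intron event of Celf1 in input ran from −2.25 to 0.85, and that of Celf3 between TRAP and input from −0.66 to 0.10. By Spearman's rho 10 of 18 similar genes were shared. Tandem UTR alternatives were not run, since no member has such an event. Celf6 rested on 20 to 151 counts per library in KO input, and MISO values missing in most libraries limit the splicing comparisons.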
